A study of Mus musculus with 18 samples.

Results

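The 40 genes described here mark or serve astrocytes. They encode their transporters, enzymes, gap junction and water channels, filaments, receptors and secreted proteins, and were taken by symbol from the 54547 gene identifiers of the count tables. Each symbol matched exactly 1 identifier. The libraries were made from total RNA of C57BL6/J mice, from their medial prefrontal cortex at postnatal day 100. In 9 animals the chow was a control diet and in 9 it contained PLX5622 at 1200 mg/kg, an inhibitor of the receptor CSF1R that microglia need to survive. A single treatment text, which names PLX5622, stands on every sample, control samples too. It gives 21 days of PLX5622, then 44 days in which a 15% solution was drunk every other day, and tissue 24 hours after the last ethanol. Whether the diet went on during drinking is not stated. All 18 animals thus carry the same stated ethanol history, and diet is the only contrast the labels give.

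Astrocytes are the glia that clear glutamate and potassium from around synapses, convert glutamate to glutamine for return to neurons, and cover blood vessels with endfeet rich in water channels. They are coupled to each other by connexins, store glycogen, and respond to injury by raising the filament proteins GFAP and vimentin. Microglia release signals that can set off this response in astrocytes. The tissue is bulk cortex, in which fewer astrocytes and less RNA per astrocyte cannot be told apart.

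Depth ran from 990136 to 1742680 counts per library. Values are given as CPM, which are counts divided by library size, here scaled by the trimmed mean of M values. Microglia were depleted in the PLX5622 libraries. The summed CPM of 20 microglial genes was 523 to 727 in controls and 145 to 245 with PLX5622, and 17 of the 17 tested genes of that list fell. Sums of 10 neuronal markers overlapped between the diets (7453 to 8305 and 7626 to 8280 CPM), as did sums of 10 oligodendrocyte markers (1379 to 2073 and 1182 to 2404 CPM). Sums of 10 choroid plexus and ependymal markers were low. They were 7.65 to 23.6 CPM in controls (mean 15.3) and 13 to 50.7 CPM with PLX5622 (mean 28.9). PLX5622 26, 27, 28, 29, 32 and 34 lay above every control. Genes were tested with edgeR's quasi-likelihood test over 11051 genes, and an adjusted p under 0.05 was called. Of the choroid plexus list only Ttr was tested, at 5.30 and 15.5 CPM on average. Its log2 fold change of 1.49 ± 0.44 (SE) was the highest of all genes tested, but was not called (edgeR adjusted p = 0.283). The part of these cells in the astrocyte values was not tested.

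No astrocyte gene passed the test for a difference between the diets. Of the 40 genes 39 passed the count filter, and 0 were called higher or lower (edgeR, Benjamini-Hochberg over all genes), against 0.398% of all 11051 genes called (0.0452% higher and 0.353% lower). At an unadjusted p under 0.05 there was 1 member, Cldn10 (2.56%, against 6.79% of all genes), and DESeq2 and limma-voom also called 0. No member had groups that did not overlap, against 0.199% of all genes. Most values lay slightly above 0: 30 of 39 were positive with a median of 0.07 on the log2 scale, against 50.03% positive and a median of 0.0001 over all genes. The count of positive values ran from 28 to 33 when any 1 library was left out. Genes share the same 18 libraries, so the values are not independent. Among 40 further astrocyte genes tested, described below, 21 were positive (52.5%), with a median of 0.01. In other marker lists, 7 of 8 oligodendrocyte precursor, 7 of 10 oligodendrocyte and 6 of 9 neuronal genes were positive. Of endothelial genes 3 of 10 were, and of mural and meningeal genes 1 of 8.

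A p that misses the threshold does not show equal levels, so the 95% intervals are given too. For 28 of the 39 genes the interval of the log2 fold change lay wholly between -0.32 and 0.32 (71.8%, against 58.6% of all genes tested). For 37 it lay within 1.5-fold (94.9%, against 93.2%). Among genes averaging 50 counts or more the member shares were not the higher ones. Within 0.32 lay 25 of 28 members (89.3%, against 90.7% of 5767 genes), and within 1.5-fold 27 (96.4%, against 99.6%). Etnppl and Gfap were the exceptions at 1.5-fold.

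**Figure D1:**
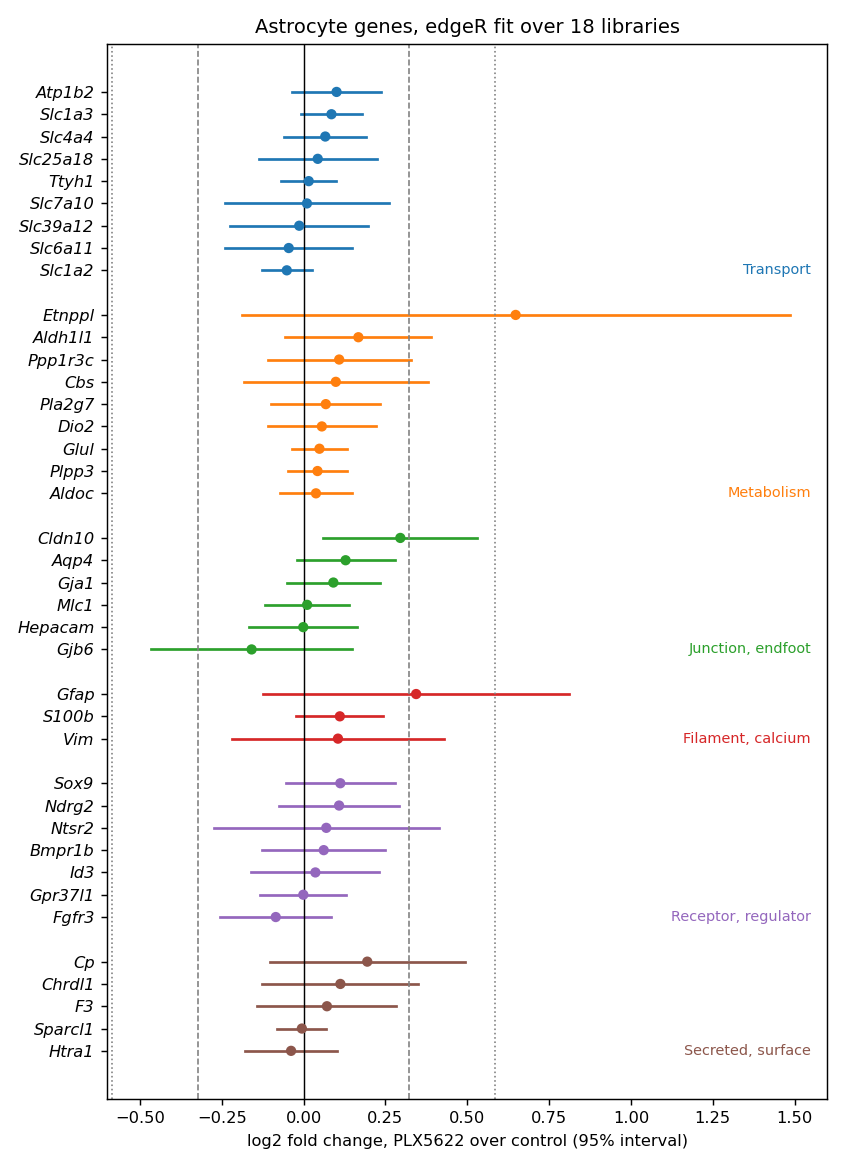
Log2 fold change of 39 astrocyte genes, PLX5622 over control, with the 95% interval (lines) from the edgeR fit over 18 libraries, grouped by function. Dashed lines mark 0.32 and dotted lines 1.5-fold in either direction. Every interval but that of Cldn10 spans 0, and Etnppl and Gfap have the widest intervals.

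Transporters all had narrow intervals. Each of the 9 lay within 0.32 on either side, with a median log2 fold change of 0.02. Slc1a2 encodes GLT-1, the main glutamate uptake carrier of the forebrain, and drew 3103 counts per library on average. It ran from 2180 to 2676 CPM in controls with a median of 2234, and from 2179 to 2292 CPM with PLX5622 with a median of 2252. The PLX5622 libraries lay close together near the lower end of the control range, and controls 4, 5, 8 and 11 lay above all of them. The fitted log2 fold change was -0.05 ± 0.04 (SE, interval -0.13 to 0.02, edgeR adjusted p = 0.876).

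Slc1a3 encodes GLAST, the other astrocytic glutamate carrier. It ran from 410 to 519 CPM in controls with a median of 481, and from 457 to 626 CPM with PLX5622 with a median of 493.1. The groups overlapped, and the top value of 626 CPM belonged to PLX5622 35. On the log2 scale the fold change was 0.08 ± 0.05 (SE, interval -0.01 to 0.18, edgeR adjusted p = 0.793) and 0.04 without that library. Atp1b2, the adhesive beta subunit of the sodium pump in glia, had the smallest p of the class after Slc1a3. It ran from 102 to 124 CPM in controls with a median of 118.2, and from 97.4 to 158 CPM with PLX5622 with a median of 119. The PLX5622 range took in the whole control range, and PLX5622 35 was again the highest. The log2 fold change was 0.10 ± 0.07 (interval -0.03 to 0.24, edgeR adjusted p = 0.854).

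The remaining transporters lay between -0.05 and 0.07 (log2). Slc6a11, the GABA carrier GAT-3, was at 54.6 ± 9.42 CPM in controls and 52.5 ± 8.60 CPM with PLX5622 (SD, n = 9 each, as in each later pair of means). Slc7a10, a carrier of glycine and D-serine, was at 24.9 ± 5.14 and 25.1 ± 4.01 CPM. The bicarbonate carrier gene Slc4a4, the zinc carrier gene Slc39a12, the mitochondrial glutamate carrier gene Slc25a18 and the channel gene Ttyh1 completed the class. Ttyh1 is overlapped by opposite-strand genes over 86.3% of its exons, but these held 278 and 52 counts in all against 11299 for Ttyh1. Here and below, overlap is with the whole span of the partner gene, introns included.

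The 9 enzymes and metabolic genes were all on the positive side with a median of 0.07 (log2), and none was called. Glul encodes glutamine synthetase, which turns the glutamate taken up into glutamine. It ran from 689 to 877 CPM in controls with a median of 786, and from 784 to 913 CPM with PLX5622 with a median of 828. The diets overlapped between 784 and 877 CPM, controls 8, 10 and 11 lay below every PLX5622 library, and 8 of 9 PLX5622 libraries lay above the control median. Its log2 fold change was 0.05 ± 0.04 (interval -0.03 to 0.13, edgeR adjusted p = 0.907).

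Aldh1l1, a folate enzyme used as a pan-astrocyte marker, ran from 23.6 to 35.4 CPM in controls with a median of 29.1. With PLX5622 it ran from 23.6 to 47.7 CPM with a median of 33.8. The highest library was again PLX5622 35. Its log2 fold change was 0.17 ± 0.11 (interval -0.06 to 0.39, edgeR adjusted p = 0.852) and 0.09 without PLX5622 35. Aldoc, the brain aldolase of glycolysis, was at 418 ± 43.4 and 429.8 ± 41.4 CPM. Plpp3, a lipid phosphatase, was at 280.2 ± 10.0 and 289 ± 16.4 CPM. Ppp1r3c, which targets a phosphatase to glycogen, Cbs, which makes cystathionine, and Dio2, which activates thyroid hormone, lay between 0.06 and 0.11 (log2).

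Etnppl breaks down phosphoethanolamine and is strongly astrocytic in adult cortex. It ran from 5.47 to 14.3 CPM in controls with a median of 9.68, and from 8.34 to 54.6 CPM with PLX5622 with a median of 11.7. The value of 54.6 CPM, from 80 counts, belonged to PLX5622 35, and the next library stood at 16.5 CPM. Etnppl gave a log2 fold change of 0.65 ± 0.40 (SE, interval -0.19 to 1.48, edgeR adjusted p = 0.830), and 0.15 ± 0.19 without PLX5622 35.

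Genes of junctions and endfeet included the smallest p of the 39. Cldn10, a claudin that astrocytes express, ran from 20.1 to 37.1 CPM in controls with a median of 29.0, and from 27.6 to 48.4 CPM with PLX5622 with a median of 32.0. The lower edge of the PLX5622 range lay above 4 of the 9 control libraries, and 5 controls fell inside it. Cldn10 gave a log2 fold change of 0.30 ± 0.12 (SE, interval 0.06 to 0.53), with an unadjusted p of 0.0146 and an edgeR adjusted p of 0.539. Without PLX5622 35 it was 0.21.

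Aqp4, the water channel of endfeet, ran from 62.0 to 85.5 CPM in controls with a median of 67.5, and from 66.8 to 91.0 CPM with PLX5622 with a median of 80.8. In 8 of 9 PLX5622 libraries it lay above the control median, with much overlap. Aqp4 gave a log2 fold change of 0.13 ± 0.08 (interval -0.02 to 0.28, edgeR adjusted p = 0.808). Gja1, connexin 43, ran from 66.1 to 108.9 CPM in controls with a median of 91.8, and from 85.1 to 108.8 CPM with PLX5622 with a median of 99.0. The diets shared their upper end, and the lowest control was control 8. Gja1 gave a log2 fold change of 0.09 ± 0.07 (interval -0.05 to 0.23, edgeR adjusted p = 0.889). Gjb6, connexin 30, was at 42.2 ± 7.60 and 38.9 ± 12.5 CPM and lay at -0.16 ± 0.15 (log2). The paired membrane proteins Mlc1 and Hepacam lay at 0.01 and -0.001 (log2).

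Of the filament and calcium-binding genes, Gfap, the filament of reactive astrocytes, ran from 33.6 to 54.6 CPM in controls with a median of 39.5, and from 37.6 to 106.5 CPM with PLX5622 with a median of 41.4. The medians differed little, while PLX5622 27 at 106.5 CPM (166 counts) and PLX5622 34 at 77.5 CPM (126 counts) stood above every control, as did PLX5622 28 at 55.8 CPM. Gfap gave a log2 fold change of 0.34 ± 0.22 (interval -0.12 to 0.81, edgeR adjusted p = 0.850), and 0.14 ± 0.13 without PLX5622 27. In PLX5622 27 the summed reactive astrocyte markers were at 275 CPM, above every control (204 to 246 CPM) and next to the highest of the diet (278 CPM). In PLX5622 34 that sum was 245.9 CPM, within the control range. PLX5622 27 was also the highest of its diet for the summed endothelial markers, at 499 CPM, and the mural and meningeal markers, at 229.7 CPM. PLX5622 34 was next at 486 and 217 CPM. Neither was the highest for oligodendrocyte or choroid plexus markers. The part of these cell types in the level of Gfap was not tested. All exons of Gfap are overlapped by the opposite-strand gene Gm26668, which held 111 counts in all against 1196.

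Vim, vimentin, which endothelial cells also express, ran from 18.2 to 50.2 CPM in controls with a median of 21.7, and from 20.9 to 37.2 CPM with PLX5622 with a median of 29.2. The control maximum belonged to control 3, whose summed endothelial markers, 605 CPM, and microglial markers, 727 CPM, were both the highest of the 18 libraries. Their part in the level of Vim was not tested. The log2 fold change was 0.10 ± 0.16 (interval -0.22 to 0.43, edgeR adjusted p = 0.962), and 0.27 without control 3. S100b, a calcium-binding protein, ran from 128 to 206 CPM in controls with a median of 164, and from 155 to 229 CPM with PLX5622 with a median of 176. The ranges overlapped from 155 to 206 CPM. S100b gave a log2 fold change of 0.11 ± 0.07 (interval -0.02 to 0.24, edgeR adjusted p = 0.815) and 0.06 without PLX5622 35. The gene Dip2a overlaps 83.0% of the exons of S100b on the opposite strand and held 1495 counts against 4282.

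**Figure D2:**
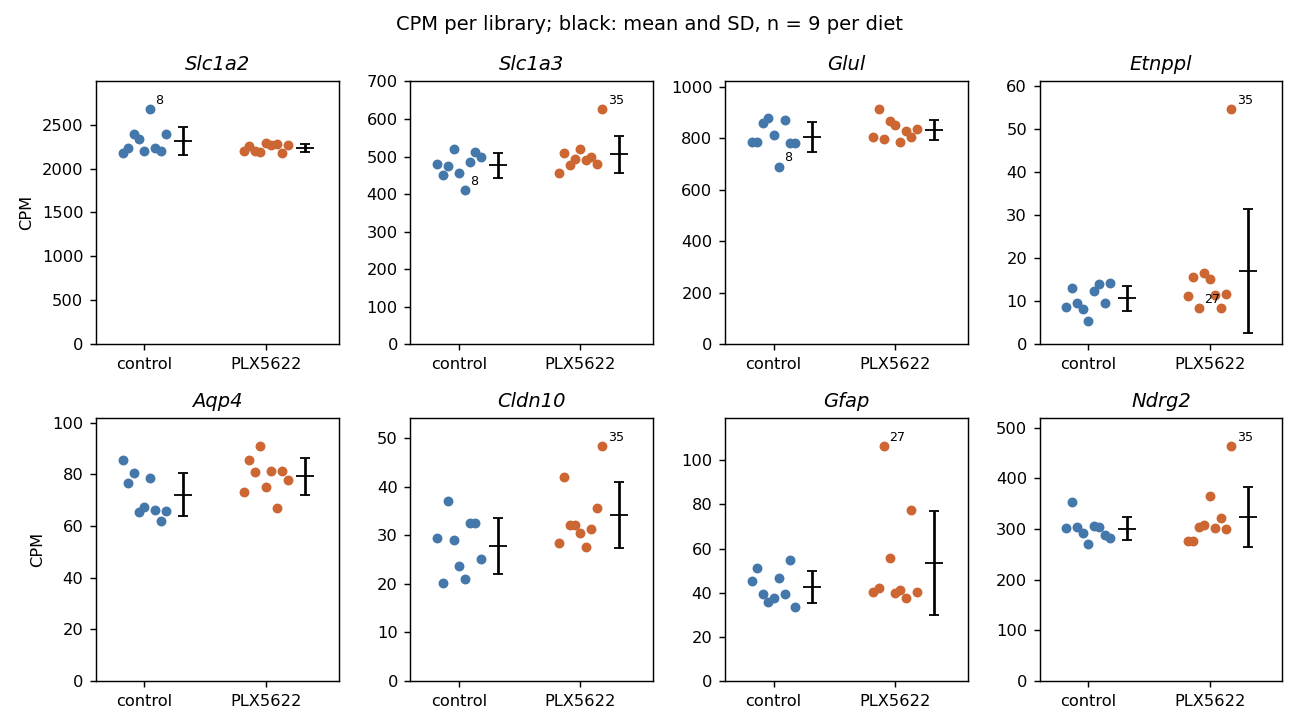
CPM of 8 astrocyte genes in each of 9 control and 9 PLX5622 libraries, with the mean and SD in black. Numbers mark libraries 8, 27 and 35 where they are the highest or lowest of their diet: PLX5622 35 tops Etnppl at 54.6 CPM and Ndrg2 at 464 CPM, and PLX5622 27 tops Gfap at 106.5 CPM.

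Among receptors and regulators Sox9, the transcription factor that sets astrocyte identity, ran from 47.4 to 65.4 CPM in controls with a median of 59.3, and from 46.7 to 75.1 CPM with PLX5622 with a median of 63.3. The ranges lay over each other, and 8 of 9 PLX5622 libraries exceeded the control median. Sox9 gave a log2 fold change of 0.11 ± 0.08 (interval -0.05 to 0.28, edgeR adjusted p = 0.875). Ndrg2, a cytosolic protein abundant in astrocytes, ran from 271 to 353 CPM in controls with a median of 302, and from 277 to 464 CPM with PLX5622 with a median of 303.5. Its top value was that of PLX5622 35. Ndrg2 gave a log2 fold change of 0.11 ± 0.09 (interval -0.08 to 0.29, edgeR adjusted p = 0.896) and 0.03 without that library. The growth factor receptor gene Fgfr3 lay at -0.09 ± 0.08, the BMP receptor gene Bmpr1b at 0.06, the prosaposin receptor gene Gpr37l1 at -0.001, the neurotensin receptor gene Ntsr2 at 0.07 ± 0.16 and the inhibitor of DNA binding Id3 at 0.04 (log2).

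Of the 6 secreted and surface proteins 5 were tested. Sparcl1, hevin, which promotes synapse formation, was at 1487 ± 62.5 and 1482 ± 61.9 CPM, a log2 fold change of -0.01 ± 0.04 (interval -0.08 to 0.07). Cp, ceruloplasmin, a copper-carrying ferroxidase, ran from 11.5 to 21.0 CPM in controls with a median of 18.2, and from 13 to 27.0 CPM with PLX5622 with a median of 17.7 (log2 fold change 0.19 ± 0.15, interval -0.10 to 0.49, edgeR adjusted p = 0.885). Its median was thus slightly lower with PLX5622 while the fitted value was positive. Chrdl1, a BMP antagonist, ran from 20.7 to 28.2 CPM in controls with a median of 24.3, and from 22.1 to 34.1 CPM with PLX5622 with a median of 24.1. Most libraries of both diets fell in the shared range (log2 fold change 0.11 ± 0.12, interval -0.13 to 0.35, edgeR adjusted p = 0.941). Htra1, a secreted protease, lay at -0.04, though all its exons are overlapped by Fgfr2 on the opposite strand, which held 1987 counts against 2584. Whether counting used strand is not given in the sources used here. Whether the partner gene affected the counts of Gfap, S100b, Ttyh1 and Htra1 is therefore not known. F3, tissue factor, lay at 0.07. Agt, angiotensinogen, was too low for the filter, at 2.95 ± 1.80 and 3.88 ± 1.58 CPM from 4.7 counts per library on average. DESeq2 placed it at 0.34 ± 0.38 (log2, SE).

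Genes of the astrocyte that were not among the 40 were examined in the same fit. Of 45 further astrocyte genes 40 were tested, 1 was called lower and 0 higher, 21 were positive and 19 negative, and the median was 0.01 (log2). At an unadjusted p under 0.05 there were 6 of the 40 (15.0%, against 6.79% of all genes). The called gene was Sparc, a matrix protein that microglia and endothelial cells also make. It was at 160 ± 28.9 CPM in controls and 102 ± 20.1 CPM with PLX5622 and fell by 0.63 on the log2 scale (SE 0.12, edgeR adjusted p = 0.0262). The adjusted p rose to between 0.051 and 0.055 without any of control 4, control 7, PLX5622 32 and PLX5622 35. Hes5, a Notch target, lay at -0.37 ± 0.14 (adjusted p = 0.429) and the chemokine gene Cxcl14 at 0.20 ± 0.09 (adjusted p = 0.592). Among the reactive astrocyte markers, 8 of the 23 listed could be tested; edgeR called 0, with 1 at an unadjusted p under 0.05 (12.5%, against 6.79% of all genes). The smallest p were those of Srgn, a proteoglycan core that blood and microglial cells also express, at -0.40 ± 0.19, Fkbp5, a glucocorticoid target, at 0.18 ± 0.13, and the filament gene Nes at -0.17 ± 0.19 (log2, SE), with edgeR adjusted p of 0.701, 0.864 and 0.950.

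Many members varied among animals of a diet by more than counting error. Spread was measured within each diet as the variance of the scaled counts over that expected from counting alone. For the 28 members averaging 50 counts or more its median was 2.20 in controls and 1.739 with PLX5622, against 1.38 and 1.22 for all 5767 genes at that depth. At that depth it exceeded 4 in 14.3% of members in controls, against 7.06% of all genes, and in 25.0% with PLX5622, against 4.25%. No test was made of these values. Over all 39 tested members, whatever their depth, it exceeded 4 in 5 members in controls (12.8%, against 3.91% of all genes tested). With PLX5622 it did so in 8 (20.5%, against 2.37%). In controls these were Slc1a2 (14.9), Aldoc (6.16), Glul (5.86), Ntsr2 (5.13) and Vim (5.06). With PLX5622 the highest were Etnppl (18.02), Gfap (15.6), Ndrg2 (15.5) and Slc1a3 (7.05). For the same relative variation the ratio grows with the mean count, so it does not rank genes by relative variation. In controls the SD was 6.86% of the mean for Slc1a2, 10.4% for Aldoc, 7.32% for Glul, 25.6% for Ntsr2 and 38.1% for Vim.

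The spread was recomputed without single libraries. Without PLX5622 35 the ratio fell to 1.08 for Etnppl, 1.15 for Slc1a3 and 3.41 for Ndrg2. Without control 8 it fell to 4.76 for Slc1a2, and without PLX5622 27 to 6.05 for Gfap, where PLX5622 34 remained high.

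PLX5622 35 was the highest library of its diet in 13 of the 39 tested members, or 33.3%, against 12.8% of all genes tested. The 13 were Aldh1l1, Aldoc, Etnppl, Pla2g7 and Ppp1r3c among metabolic genes, Slc1a3, Slc4a4 and Atp1b2 among transporters, Ndrg2, Ntsr2 and Gpr37l1 among receptors and regulators, S100b, and Cldn10. The excess over the median of the other 8 libraries was 4.71-fold in Etnppl, 1.73-fold in Ntsr2, 1.54-fold in Ndrg2 and 1.53-fold in Cldn10, and 1.18- to 1.48-fold in the rest. Of the 40 tested further astrocyte genes the same library was highest in 11 and lowest in 11, against 12.8% and 11.8% of all genes tested. Its depth, 1485842 counts, its mitochondrial share, 4.71%, and its sum of neuronal markers, 8090 CPM, lay within the range of the other PLX5622 libraries. Its microglial sum, 145 CPM, was the lowest of the 18 by a small margin over PLX5622 27 (148 CPM). The part of residual microglia in these levels was not tested.

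Control 8 differed in another way. It held the highest Slc1a2 of all 18 libraries at 2676 CPM, and was the lowest control in 11 of 39 members, against 16.0% of all genes. Its sum of junction and endfoot genes was 349 CPM, against 387 to 472 CPM in the other controls. Control 8 was also the highest control for summed oligodendrocyte (2073 CPM), oligodendrocyte precursor (478 CPM) and neuronal markers (8305 CPM). For summed mural and meningeal (166 CPM) and reactive astrocyte markers (204 CPM) it was the lowest control. The part of these cell types in its astrocyte values was not tested.

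**Figure D3:**
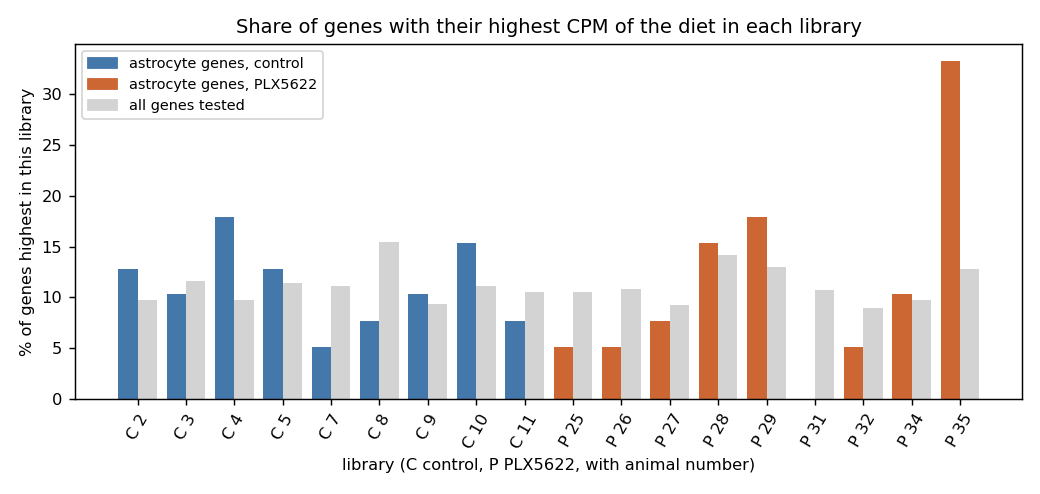
Share of genes whose highest CPM within their diet fell in each library, for 39 tested astrocyte genes (coloured) and all 11051 genes tested (grey). PLX5622 35 stands at 33.3% of astrocyte genes against 12.8% of all genes, while PLX5622 31 was the highest in none.

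Promoters were searched for 3 motifs of factors known in astrocytes. STAT3 drives Gfap in reactive astrocytes, and nuclear factor I and SOX9 act in astrocyte development. RefSeq promoters (GRCm38.p6, 250 bases before to 50 after each start) were found for 35 members and searched on both strands. The palindrome TTCNNNGAA, where N is any base, was present in 6 of 35 members (17.1%) and in 9.55% of 27025 genes. The half-site of nuclear factor I, TTGGCA, was in 4 (11.4%, against 16.1%), and a SOX core, ACAATG, in 2 (5.71%, against 14.3%). No factor was measured, and a match shows only that the letters are there. The STAT palindrome is shown for 4 members described here for single libraries or animal number, chosen after their values were seen. Its bases are in capitals, 5′ to 3′ on the strand of the gene. Its first base lay at -2 from the start in Gfap, -96 in Slc1a3, -62 in Ntsr2 and -145 in Pla2g7. In Gfap the palindrome thus spans the start.
Gfap (chr11:102897185-102897211, minus strand): tgggggtgcTTCCAGGAAgtcaggggc
Slc1a3 (chr15:8710886-8710912, minus strand): tcaggatccTTCCAAGAAatttcagtt
Ntsr2 (chr12:16653399-16653425, plus strand): ttttggaggTTCCCAGAAaggaggtgg
Pla2g7 (chr17:43568297-43568323, plus strand): gttcagtgaTTCCGTGAActttgcgga
The other matches lay in Agt and in Aldoc, which is also described for a single library but is not shown. Of the 6 genes far above the rest of the diet in PLX5622 35, Slc1a3, Ntsr2 and Aldoc had a match in this window. Etnppl, Ndrg2 and S100b had none. These 6 genes were picked by their values in the same libraries, and a relation of the motif to that library was not tested.

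Covariation from animal to animal was weak on the whole among members averaging 50 counts or more. Over the 28 members averaging 50 counts or more, the median Pearson's r of log2 CPM over 378 pairs was 0.13 in the 9 controls and 0.05 in the 9 PLX5622 libraries, against -0.00003 and 0.0007 over all pairs of 5767 genes. These are descriptions, since pairs share libraries and depth. With PLX5622 the median r was higher at a mean of at least 100 counts, as given in the last section. No all-gene value was taken at that depth, and the part of counting error in these r was not tested. Among the 378 pairs an r over 0.7 was reached by 21 in controls (5.56%, against 2.67% of all gene pairs). With PLX5622 it was reached by 27 (7.14%, against 2.06%). Of these, 2 pairs reached it in both diets, which is 9.52% of the former and 7.41% of the latter. Over all pairs, that is 0.529% of member pairs, against 0.0925% of all gene pairs. These were Aldoc with S100b, and Ndrg2 with Sparcl1. Pairs within a function class had a median r of 0.12 in controls and -0.01 with PLX5622, against 0.13 and 0.06 for pairs across classes.

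Few of these pairs stayed when a library was left out. Without PLX5622 35, 6 of the 27 pairs stayed over 0.7 among 15 that then exceeded it, and the r of Aldoc with S100b in that diet went from 0.71 to -0.005. Without control 8, 7 of the 21 control pairs stayed among 13. Without both libraries no pair exceeded 0.7 in both diets.

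A set of 10 pairs chosen by function was tested in each diet, and 0 of the 20 relations passed (exact permutation test over 362880 orders, two-sided, Benjamini-Hochberg). The smallest p for Pearson's r was that of Aldh1l1 with Slc1a3 under PLX5622, with r = 0.81 (exact p = 0.0134, adjusted 0.268), rho = 0.48 (exact p = 0.194, adjusted 0.431), and r = -0.003 without the 2 libraries farthest from the median. Aldoc with Glul gave r = 0.65 in controls (exact p = 0.0574, adjusted 0.359) and r = 0.54 with PLX5622 (exact p = 0.131, adjusted 0.359), with rho of 0.72 (exact p = 0.0369, adjusted 0.246) and 0.83 (exact p = 0.00827, adjusted 0.165). Without the 2 farthest libraries r was 0.63 and 0.92. The filament pair Gfap and Vim gave r = 0.55 and 0.58 (exact p = 0.119 and 0.0953, adjusted 0.359 each), rho of 0.62 and 0.65 (exact p = 0.0857 and 0.0666, adjusted 0.286 and 0.266), and 0.20 and 0.74 without the farthest libraries.

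**Figure D4:**
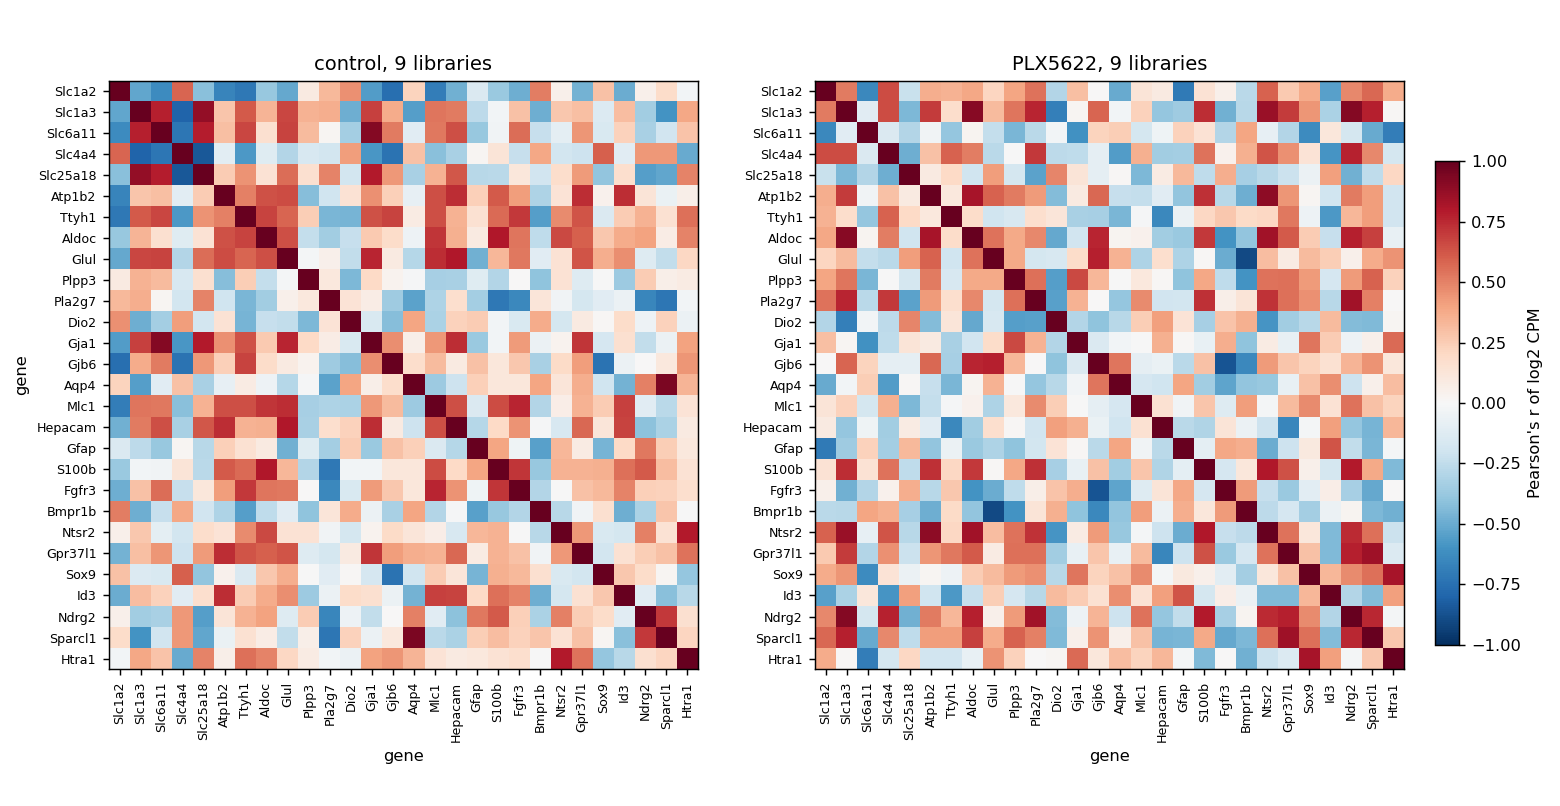
Pearson's r of log2 CPM between 28 astrocyte genes averaging 50 counts or more, over 9 control libraries (left) and 9 PLX5622 libraries (right), ordered by function. The blocks of high r differ between the panels, and with PLX5622 the pairs over 0.7 most often involve Ndrg2, Slc1a3, S100b, Ntsr2 and Aldoc, genes in which library 35 was the highest.

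Animal number, which runs from 2 to 11 in controls and from 25 to 35 with PLX5622, was examined because genes outside this set had followed it in earlier results of these data. The labels do not say what the number stands for. In an edgeR fit with diet and the position of the number within its diet, 34 of 11051 genes (0.308%) were called on position. Among the 39 members 1 was called, upward (0.163% of all genes were), and 20 slopes were positive. That gene was Pla2g7, which encodes the secreted enzyme that breaks down platelet-activating factor and lies on chromosome 17 from 43568098 to 43612201 (GENCODE M21, GRCm38).

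The slope of Pla2g7 was 0.07 ± 0.01 log2 units for each step in position (edgeR adjusted p = 0.00375). In controls 2 and 3 it was at 66.8 and 60.2 CPM, in controls 4, 5, 7, 8 and 9 between 72.1 and 79.0 CPM, and in controls 10 and 11 at 83.4 and 85.1 CPM. With PLX5622 it was between 61.5 and 71.9 CPM in libraries 25 to 28, between 79.8 and 86.9 CPM in 29, 31, 32 and 34, and at 107.7 CPM in 35. Controls 10 and 11 were thus the highest of their diet, and libraries 25 to 28 all lay below the other PLX5622 libraries.

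In the 9 controls Pearson's r between Pla2g7 and the animal number reached 0.79, with an exact permutation p of 0.00834 (0.00834 after adjustment over 2 relations). Spearman's rho was 0.80, with an exact p of 0.0138 before and after adjustment. In the 9 PLX5622 animals Pearson's r reached 0.89, with an exact p of 0.00129 that became 0.00257 after adjustment. Spearman's rho was 0.87, with an exact p of 0.00451 that became 0.00902. Without the pair of animals whose numbers lie farthest from the median number of their diet, r came to 0.68 in controls and 0.86 with PLX5622. These tests use the libraries in which the gene was found and are no separate support. Without PLX5622 35 the slope was 0.06 ± 0.01 and the adjusted p 0.064, so the call was lost without that library. Across diets Pla2g7 ran from 60.2 to 85.1 CPM in controls with a median of 76.3, and from 61.5 to 107.7 CPM with PLX5622 with a median of 79.8 (log2 fold change 0.07 ± 0.08, interval -0.10 to 0.23, edgeR adjusted p = 0.957).

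**Figure D5:**
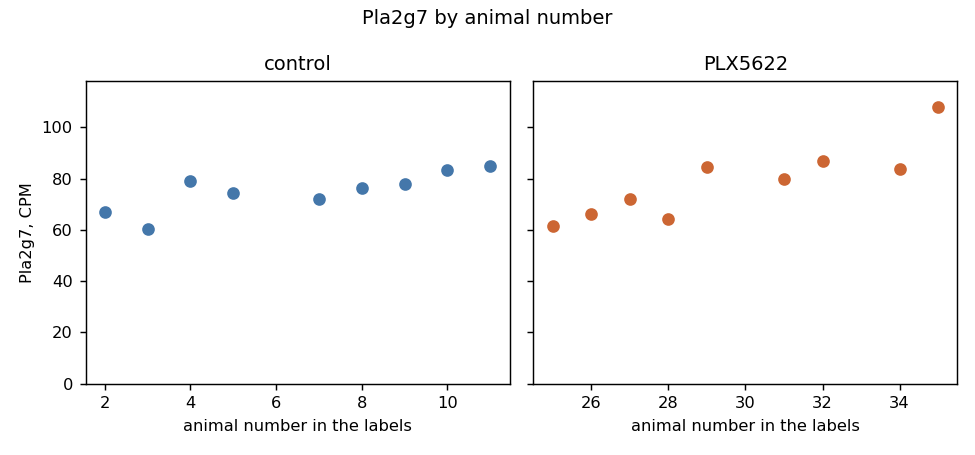
Pla2g7 CPM against the animal number of the labels, for 9 controls (left) and 9 PLX5622 animals (right). The level lay at 66.8 and 60.2 CPM in the lowest-numbered controls and at 83.4 and 85.1 CPM in the highest, and between 61.5 and 107.7 CPM with PLX5622.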

How the data were processed

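The deposited values are raw read counts per Ensembl gene identifier, 1 table per library, from single-end libraries per the labels' protocols. The tools named in the submitters' processing notes include Bowtie2 2.3.4.3 and HTSeq 0.11.0, with GRCm38.p6 among the builds. Strand setting, counted feature and annotation release were not given in the sources used here. Of 54547 identifiers, 53620 matched a symbol regardless of version.

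Counts were tested with edgeR 4.0.16 in R 4.3.3: filterByExpr (minimum count 10, minimum total 15), TMM, robust quasi-likelihood fit, Benjamini-Hochberg over all genes. CPM use the totals of tested genes times the TMM factors, and log2 CPM a prior count of 2. Alternatives were DESeq2 1.42.0, limma-voom (limma 3.58.1), other scalings and filters, and each library left out. The fit was also run on simulated counts. These were drawn for each gene independently, so shifts shared by many genes of a library were not covered. Animals are separate by their numbers, which do not overlap between diets. Nothing is stated on cages or litters.

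The genes and lists were chosen with earlier results of these data known. Members given in full were the smallest p of each function class (and the next in classes of over 5), 10 fixed genes, any called under an alternative, the 3 with the largest spread and those under 10 counts. The further and reactive lists give their 3 smallest p. The fits without PLX5622 35 and control 8 together or on position with a library left out were added after seeing the data.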

Additional observations from a re-analysis of the deposited data

Results flagged for a closer look

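In 80 groups of 9 libraries (40 genes in 2 diets), 12 values in 11 genes lay far from the nearest library relative to the range of their diet. The cut used would flag about 1 in 20 groups of independent, normally distributed values. These groups share libraries, so their count cannot be set against that share. The share of all genes flagged at either end was not computed. In PLX5622 35, 6 genes were far above the rest of the diet, against 0.715% of all genes tested. Etnppl was at 54.55 CPM there with the next library at 16.5, Slc1a3 at 626 CPM (next 521), Aldoc at 525.7 CPM (next 451), S100b at 229.1 CPM (next 188), Ntsr2 at 103.6 CPM (next 76.5) and Ndrg2 at 464.4 CPM (next 366).

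In controls, Slc1a2 was high in control 8 at 2676 CPM (next 2398). Control 3 was high in Vim at 50.2 CPM (next 33.8) and in Ndrg2 at 352.9 CPM (next 307). Gjb6 was high in control 2 at 60.1 CPM (next 45.8). At the low end, Slc7a10 was at 14.03 CPM in control 10 (next 22.5) and Slc6a11 at 33.77 CPM in PLX5622 29 (next 48.3).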

How the results depend on the processing

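No paired analysis was possible because no replicate number occurs in both diets. The count of 0 called members held under every alternative run. Of 436 alternative values for 17 named members, 434 kept their sign and stayed uncalled. Pla2g7 went from 0.07 to -0.0039 without PLX5622 35 and to -0.0013 without that library and control 8. Members with an interval within 0.32 (log2) numbered 27 to 31, and within 1.5-fold 36 to 38, with a library left out, and their median was 0.04 to 0.08 (log2). Over all genes, the 39 lower calls became 65 with DESeq2, 92 without a count filter, 8 at a mean of at least 50 counts, and 38 to 50 without 1 library. The 5 higher calls became 20, 0 and 17 without a filter, at 50 counts and with the animal position, 3 without control 8 and PLX5622 35 together, and 2 to 13 without 1 library (2 without control 2 or 4, 3 without control 3, PLX5622 34 or 35, 8 without control 8, 13 without PLX5622 25). Sparc lost its call at a mean of at least 50 counts (adjusted p = 0.059) and without control 8 and PLX5622 35 (0.079). Calls on animal position, 16 lower and 18 higher, ran from 6 to 56 and from 12 to 28 without 1 library, and the called members from 0 to 1. The count of lower calls was 6 without control 11 or PLX5622 25, 56 without control 9 (28 higher), 34 without control 8, 27 without PLX5622 35 and 10 without control 2. The median r of members was 0.10 to 0.15 in controls and 0.0327 to 0.1125 with PLX5622 without 1 library. With PLX5622 it was 0.34 at a mean of at least 100 counts and 0.11 without PLX5622 35, with or without control 8. With total counts the r of Aqp4 and Gja1 under PLX5622 went from -0.0278 to 0.0357. The causes were not tested. The tested members with the lowest counts, Etnppl, Cp and Cbs, at 19.0, 24.6 and 29.1 counts per library, had intervals reaching past 0.32 (log2).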
